A study of Oryza sativa with 12 samples.

Results

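Abscisic acid is the plant hormone of water deficit and seed dormancy, and its level in a cell is set by the balance of synthesis and breakdown. When the hormone binds its PYL receptors, clade A PP2C phosphatases are inhibited and kinases of the SnRK2 family are released to phosphorylate bZIP transcription factors and membrane proteins. The rice SnRK2 kinases are the SAPK proteins, which are known to be activated by hyperosmotic stress, and of which SAPK8, SAPK9 and SAPK10 are known to be activated by the hormone as well. Breakdown starts with hydroxylation at the 8' carbon by cytochrome P450 enzymes of the CYP707A family, named ABA8ox in rice.

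Described here are 3 genes of this system in rice roots under arsenate: the kinases OsSAPK3 and OsSAPK4 and the hydroxylase OsABA8ox1. They were found as probe sets assigned to a single gene whose symbol or synonym in the annotation is one of these names, which gave 1 probe set for each gene, 3 of the 17905 genes annotated on the array. All 3 passed the filter on low signal, as did 15638 genes in all. OsSAPK3 (LOC4349411, chromosome 10, synonym REK) and OsSAPK4 (LOC4324934, chromosome 1) are members of different subclasses of the SnRK2 family. OsABA8ox1 (LOC9269675, chromosome 2, synonym CYP707A5) is known for the fast removal of abscisic acid in submerged rice shoots. The 3 genes were selected on measured values of these same arrays, and which comparison led to each of them is not recorded in the sources used here. Their values in all comparisons are therefore a description, and no p is given for them.

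Root RNA was measured on 12 Affymetrix Rice Genome arrays, 3 for each of 4 groups, the varieties Azucena and Bala each without arsenate (control) and with it. Azucena is the variety known as sensitive to arsenate and Bala the more tolerant one. All plants grew in hydroponic solution for 7 days under 12 hours of light, the controls with 0 and the treated plants with 1 ppm (13.3 uM) arsenate. Each sample was 100 mg of root pooled from 4 plants of 1 pot, and the replicate number stands for 1 of 3 independent experiments, in each of which all 4 groups were harvested together. Values are MAS5 signals, on a linear scale on which the trimmed mean of every array is 100.0. Signals of different probe sets cannot be compared as levels.

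Arrays of a group correlated with r of 0.916 to 0.974 across probe sets, with median signals of 7.3 to 10.4. Of 5 measured markers of root tissue 3 fell in each variety, against 10.3% of all genes in Azucena and 5.71% in Bala. OsSCR1, a regulator of the root endodermis, did not pass (log2 change 0.027 ± 0.34 and 0.14 ± 0.34). At an unadjusted limma p under 0.05 there were 4 of the 5 in each variety. The marker OsSHR1 read lower with arsenate in every experiment. Its log2 differences were -0.70, -0.36 and -0.44 in Azucena and -0.63, -0.78 and -0.76 in Bala. Most of the signal of the 5 came from the silicon transporters Lsi1 and Lsi2, and the summed signal of the 5 ran from 9393 to 11935 over the 6 controls and from 1600 to 5978 over the 6 arsenate arrays. None of these 5 was listed at 0 on any array. The 8 markers of green shoot tissue summed to 354, 368 and 2088 in Azucena controls against 209 to 323 in treated Azucena. In Bala the sum ran from 1030 to 3329 in controls and from 438 to 3488 in treated roots. Azucena control 3 and Bala arsenate 3 held far more of this signal than the other arrays of their groups. Of the 8 genes 6 were above the filter and tested, and only OsGLK1 passed the test, lower in each variety. The 3' to 5' signal ratio of a GAPDH control, a sign of RNA quality, was 7.58 to 8.60 in Azucena controls, 8.86 to 23.8 in Azucena arsenate, 1.43 to 2.17 in Bala controls and 3.53 to 3.78 in Bala arsenate. This ratio was therefore higher with arsenate in both varieties. An actin ratio was higher in Bala (2.54 to 3.66 against 6.82 to 8.59), while its ranges overlapped in Azucena (medians 2.83 against 8.31). The ranges of a cyclophilin ratio and of another GAPDH pair overlapped in both varieties. Cyclophilin medians were 2.31 in controls against 2.73 with arsenate in Azucena, and 2.16 against 2.78 in Bala. Medians of the other GAPDH pair were 2.05 against 5.80 in Azucena, and 10.2 against 5.74, lower with arsenate, in Bala. The part of tissue makeup and RNA quality in the results below was not tested. In whole roots, fewer cells of a type and less RNA per cell cannot be told apart.

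OsSAPK3 read lower with arsenate than without it in both varieties. In Azucena controls its signal was 1327, 1263 and 1235 in experiments 1, 2 and 3, and with arsenate it was 253.7, 446.2 and 584.3. In Bala controls it was 1538, 1256 and 1386, and with arsenate 541.3, 594.5 and 437.8. Every arsenate array lay below every control array of either variety. Over all genes, groups parted in this direction for 18.8% in Azucena and 13.8% in Bala. Azucena controls lay within a narrow band (1275 ± 47.3, SD, n = 3, a coefficient of variation of 3.71%), while the treated roots of that variety differed widely (428 ± 166, SD, n = 3, 38.8%). The fitted log2 change was -1.65 ± 0.29 (SE) in Azucena, with a 95% interval from -2.30 to -0.997 (3.14-fold lower), and -1.41 ± 0.29 in Bala, from -2.07 to -0.76 (2.66-fold lower).

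OsSAPK4, a kinase known from work on salt tolerance in rice, also read lower with arsenate in both varieties. Its signal was 1073, 973.5 and 939 in Azucena controls and 337.1, 415.9 and 665.2 with arsenate. Bala controls read 946.7, 950.5 and 935.4, and Bala arsenate arrays 544, 527.7 and 413.3. As for OsSAPK3, every arsenate array was below every control array, and the highest arsenate value of both kinases in Azucena came from experiment 3. The Bala controls differed by a coefficient of variation of only 0.832% (944 ± 7.85, SD, n = 3). The log2 change was -1.13 ± 0.25 in Azucena (interval -1.71 to -0.55, 2.18-fold lower) and -0.94 ± 0.25 in Bala (interval -1.52 to -0.36, 1.92-fold lower).

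OsABA8ox1 was lower with arsenate in both varieties on average. Its coefficient of variation was 53.1% in Azucena arsenate and 48.3% in Bala control, above that of either kinase in those groups, and 15.9% in Bala arsenate, close to theirs. In Azucena it read 290.8, 346.8 and 309.8 without arsenate and 288.2, 192.8 and 87.1 with it. In Bala it read 695, 370.3 and 283 without arsenate and 135.5, 182.6 and 146.3 with it. Control and arsenate groups did not overlap within a variety, but in Azucena the lowest control and the highest arsenate array were nearly equal. The log2 change was -0.89 ± 0.36 in Azucena (interval -1.71 to -0.07, 1.85-fold lower) and -1.43 ± 0.36 in Bala (interval -2.25 to -0.61, 2.70-fold lower). Single arrays carried much of these values, and the intervals are no test of a gene selected on these arrays. Without Azucena arsenate 3 the Azucena change was -0.52, and without experiment 3 it was -0.43. Without experiment 1, which held the Bala control at 695, the Bala change was -0.98.

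**Figure D1:**
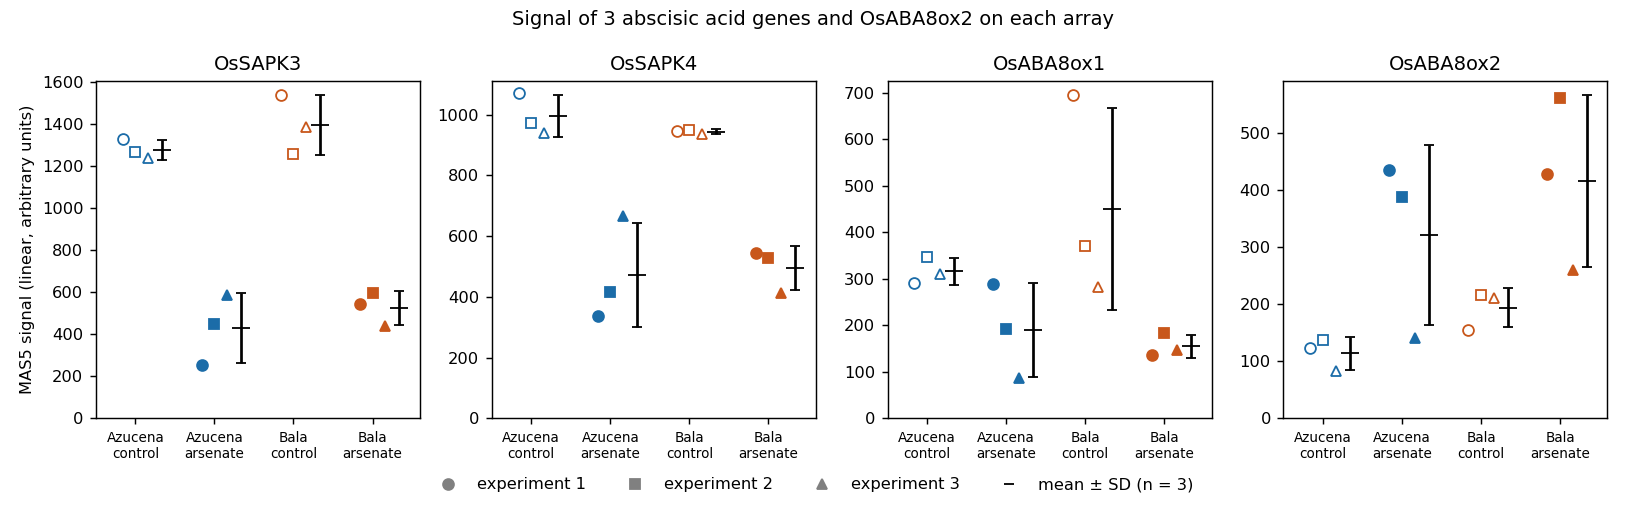
Linear MAS5 signal (vertical axes, starting at 0) of OsSAPK3, OsSAPK4, OsABA8ox1 and the related hydroxylase OsABA8ox2 on each of the 12 arrays, with open symbols for controls, filled symbols for arsenate and the marker shape for the experiment, beside the mean ± SD (n = 3) of each group. The kinases read lower on all 6 arsenate arrays than on all 6 controls, OsABA8ox1 does so within each variety with 288.2 against 290.8 at the closest point in Azucena, and OsABA8ox2 lies higher with arsenate in each variety.

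Left out together, Azucena control 3 and Bala arsenate 3 changed these values in different ways. The log2 changes were then -1.80 in Azucena and -1.16 in Bala for OsSAPK3, -1.30 and -0.68 for OsSAPK4, and -0.52 and -1.77 for OsABA8ox1. All stayed below 0, and the Azucena value of OsABA8ox1 moved the most in proportion.

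The 3 experiments put the size of these differences in different orders. In Azucena the log2 difference between the arsenate and control arrays of one experiment was -2.38, -1.50 and -1.08 for OsSAPK3 and -1.66, -1.22 and -0.50 for OsSAPK4. Both kinases thus differed most in experiment 1 and least in experiment 3. OsABA8ox1 ran the other way in the same Azucena roots, with -0.013, -0.84 and -1.81. In Bala the differences were -1.50, -1.08 and -1.66 for OsSAPK3, -0.80, -0.85 and -1.17 for OsSAPK4, and -2.34, -1.01 and -0.94 for OsABA8ox1. In Bala the kinases were therefore lowest relative to control in experiment 3, and the hydroxylase in experiment 1. All 18 differences were below 0. The summed root markers were highest among the arsenate arrays in experiment 3 for both varieties, at 4364 and 5978.

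**Figure D2:**
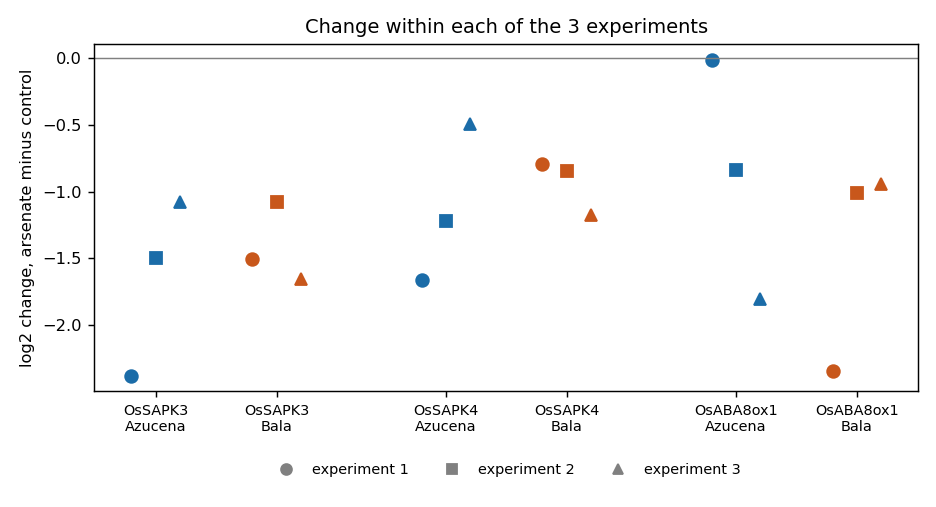
Difference in log2(signal + 2.1) between the arsenate and the control array of the same experiment (vertical axis) for each gene in Azucena and Bala, with the marker shape for experiments 1 to 3. All points lie below 0, and the point nearest to it is OsABA8ox1 in Azucena in experiment 1, at -0.013.

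Among all 15638 genes tested, 4.08% had a lower log2 change than OsSAPK3 in Azucena, 7.69% lower than OsSAPK4 and 10.5% lower than OsABA8ox1. In Bala these shares were 3.50%, 7.35% and 3.40%. With the limma fit over all probe sets and an adjusted threshold of 0.05, 10.3% of genes were called lower in Azucena and 5.71% in Bala. Genes called lower in both varieties made up 4.09%. Genes whose control and arsenate arrays did not overlap, with arsenate lower in both varieties, made up 8.68%. Since earlier results of these comparisons were known when the 3 genes were picked, nothing is read from these positions. Across 24 alternative settings every log2 change of the 3 genes with arsenate stayed below 0, but the sizes moved. The sign was below 0 within each experiment, so leaving out a whole experiment could not turn it. Other filters leave the log2 change itself as it is. OsSAPK3 ran from -1.96 to -1.27 in Azucena and from -1.58 to -1.16 in Bala. For OsSAPK4 these ranges were -1.46 to -0.86 and -1.10 to -0.68, and for OsABA8ox1 -1.32 to -0.43 and -1.77 to -0.98.

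For neither kinase did the arsenate change differ between the varieties by more than its error. The arsenate change of OsSAPK3 in Bala minus that in Azucena was 0.24 ± 0.41 on the log2 scale (95% interval -0.69 to 1.16), and that of OsSAPK4 was 0.19 ± 0.36 (-0.63 to 1.01). For OsABA8ox1 the same difference was -0.55 ± 0.51 (-1.71 to 0.62), and it turned sign to 0.35 without experiment 1 and reached -1.25 without experiment 3. These intervals allow differences of more than 1.5-fold in both directions. Across the array, 0.0703% of genes were called for this difference.

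The levels of the 3 genes in the varieties also overlapped. Without arsenate, Bala minus Azucena was 0.12 ± 0.29 for OsSAPK3, -0.073 ± 0.25 for OsSAPK4 and 0.41 ± 0.36 for OsABA8ox1. With arsenate these log2 differences were 0.36 ± 0.29, 0.12 ± 0.25 and -0.14 ± 0.36. The signs with arsenate rest on single arrays: without Azucena arsenate 1 the values were -0.017 for OsSAPK3 and -0.14 for OsSAPK4, and without Bala arsenate 1 that of OsABA8ox1 was 0.18. Between controls OsABA8ox1 was at 0.12 without Bala control 1. Ordered by mean signal, OsSAPK3 went from Bala control (1393 ± 141) and Azucena control (1275 ± 47.3) to Bala arsenate (525 ± 79.7) and Azucena arsenate (428 ± 166), with neighbours of the same treatment overlapping. OsSAPK4 was ordered Azucena control (995 ± 69.4), Bala control (944 ± 7.85), Bala arsenate (495.0 ± 71.2) and Azucena arsenate (473 ± 171). OsABA8ox1 went from Bala control (449 ± 217) and Azucena control (316 ± 28.5) to Azucena arsenate (189 ± 101) and Bala arsenate (155 ± 24.7). With each array centred on its median, the differences without arsenate were 0.27 for OsSAPK3 and 0.075 for OsSAPK4, so that the sign turned for OsSAPK4.

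The other 8 SnRK2 kinases, OsSAPK1, OsSAPK2 and OsSAPK5 to OsSAPK10, did not pass the test in either variety. Their log2 changes ran from -0.39 to 0.40 in Azucena and from -0.54 to 0.68 in Bala, with medians of 0.022 and -0.13 against 0.14 and 0.076 over all genes. The smallest limma adjusted p was 0.164 in Azucena and 0.0883 in Bala, and at an unadjusted p under 0.05 there were 0 and 2 genes. A test of OsSAPK3 or OsSAPK4 against these relatives was not made.

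Of the 8, OsSAPK2, a kinase known for drought tolerance, and OsSAPK7 had groups that did not overlap. OsSAPK2 read 661.8, 701.9 and 673.7 in Azucena controls and 489.6, 537.4 and 574.6 with arsenate, and 692.1, 715.1 and 490 in Bala controls against 438.9, 433.9 and 409.5. It was thus lower on each arsenate array, with log2 changes of -0.35 ± 0.18 (limma adjusted p = 0.202) and -0.54 ± 0.18 (limma adjusted p = 0.0883). In Bala it passed with arrays centred on the median (adjusted p = 0.0342), with limma's trend and robust options (0.0416), with the filter at the 70th percentile (0.0493) and without Bala control 3 (0.0374). Azucena OsSAPK7 read 297.7, 344.4 and 288.8 without arsenate and 465, 373.4 and 389.7 with it, and Bala OsSAPK7 280.1, 325.8 and 209.9 against 338.7, 359.3 and 350.5. Its log2 changes were 0.40 ± 0.19 and 0.38 ± 0.19, higher on each arsenate array but not past the test (limma adjusted p = 0.164 and 0.222). Over all genes, 12.4% had arsenate arrays above the controls without overlap in both varieties, and 8.68% had them below.

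The remaining SnRK2 kinases overlapped between control and arsenate. Of the kinases known to be activated by the hormone, OsSAPK8 ranged from 867.2 to 919 in Azucena controls and, with arsenate, from 801.7 to 915.2. OsSAPK9, on a probe set that may match several transcripts, had a log2 change of 0.31 ± 0.29 in Azucena and 0.68 ± 0.29 in Bala, where its control of experiment 3 (158.9) was above every arsenate array. It passed in Bala without that experiment (log2 change 1.10, limma adjusted p = 0.0411). OsSAPK10 had low signals, from 18.8 to 41.9.

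**Figure D3:**
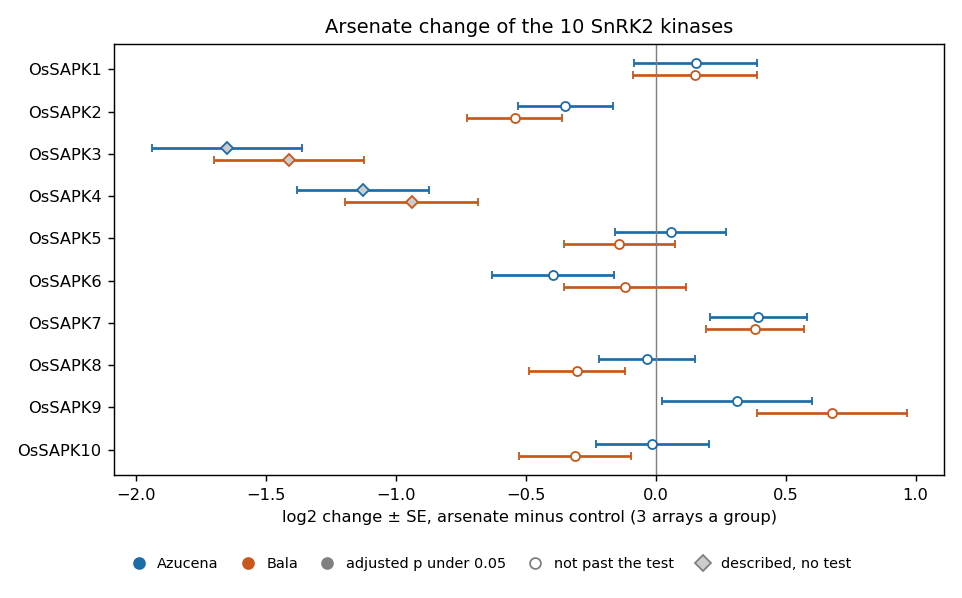
Log2 change ± SE with arsenate (horizontal axis, 3 arrays a group) of the 10 measured SnRK2 kinases in Azucena and Bala. OsSAPK3 and OsSAPK4, drawn as diamonds because they are described without a test, lie between -1.65 and -0.94, and the other 8, none past an adjusted p of 0.05, lie between -0.54 and 0.68.

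OsABA8ox2 (chromosome 8), the other measured hydroxylase of abscisic acid breakdown, stood on the opposite side from OsABA8ox1. It read 122.7, 138 and 82.3 in Azucena controls and 436.6, 388.1 and 141.2 with arsenate, and 155.1, 216 and 211.9 in Bala controls and 428.5, 561.3 and 259.8 with arsenate. All arsenate arrays were above the controls of their variety. OsABA8ox2 rose in Azucena by 1.35 ± 0.33 on the log2 scale (limma adjusted p = 0.0216), and in Bala its change was 1.04 ± 0.33 (limma adjusted p = 0.0747). The Azucena call was lost without any one of the 3 Azucena controls or Azucena arsenate 1 or 2, with adjusted p from 0.0599 to 0.0870, and without the filter (0.0619). In Bala it passed under 5 of the 24 alternatives, with adjusted p from 0.0174 without Bala control 3 to 0.0488 with the filter at the 70th percentile. Its probe set may match several transcripts.

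Together with these relatives, 27 other genes of abscisic acid synthesis, breakdown, transport and signalling were measured, of which 25 passed the filter and OsPP2C51 and OsVP1 did not. They were found by symbol or synonym among probe sets of a single gene. The NCED genes of hormone synthesis, ABA8ox3 and most PYL receptors had no match there, so they are not covered. In Azucena 4 rose and 1 fell (20.0% called, against 22.7% of all genes), and in Bala 2 rose and 0 fell (8.0% against 12.7%). The shares called were close to those of all genes or below them. The median log2 change was 0.29 in Azucena and -0.11 in Bala, against 0.14 and 0.076 over all genes. No gene passed for the difference between varieties by limma, with 2 at an unadjusted p under 0.05.

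In hormone synthesis, 3 of 6 genes passed in Azucena, and all of them were phytoene synthases, the first enzymes of the carotenoid route from which the hormone is made. OsPSY2 rose in Azucena from 49.8, 56.7 and 48.5 to 323, 237.7 and 150.5 (log2 change 2.09 ± 0.27, limma adjusted p = 0.00161). In Bala it went from 58.1, 105.6 and 77.1 to 155.1, 164.4 and 131.3 (0.92 ± 0.27, limma adjusted p = 0.0597). It passed there under 5 of the 24 alternatives, with adjusted p from 0.0261 to 0.0447. OsPSY2 arrays did not overlap between control and arsenate in either variety. OsPSY3, an isoform known in rice for its link to abscisic acid under stress, rose in both varieties, by 1.73 ± 0.34 (limma adjusted p = 0.00939) and 1.71 ± 0.34 (limma adjusted p = 0.0144). Without the experiment block neither passed (0.128 and 0.173), and its arrays overlapped, with 14.4 to 37.6 against 31.6 to 137.4 in Azucena and 23 to 145.6 against 140.6 to 430.2 in Bala. The Bala call was also lost without Bala arsenate 2 (adjusted p = 0.0532) or Bala arsenate 3 (0.0529).

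OsPSY1 fell in Azucena by 1.17 on the log2 scale (SE 0.28, limma adjusted p = 0.0205), from 110.6, 64.7 and 91.9 to 42.2, 39.3 and 31.7. In Bala its change was -0.65 ± 0.28 (limma adjusted p = 0.168). The phytoene synthases thus moved in opposite directions in Azucena. The call for OsPSY1 was lost without Azucena control 1 or 3 or Azucena arsenate 2 or 3, with adjusted p from 0.0575 to 0.0903, and without the filter (0.0638). A second tested probe set of OsPSY1 gave -1.16 ± 0.28 in Azucena (limma adjusted p = 0.0199), and another, with a mean signal of 10.1, gave 0.24 ± 0.58 (limma adjusted p = 0.797). The later steps that were measured, which leave out the NCED genes, did not pass. For PDS, phytoene desaturase, log2 changes in Azucena and Bala were 0.26 ± 0.22 and 0.54 ± 0.22. OsZEP1, zeaxanthin epoxidase, had 0.30 ± 0.27 and -0.13 ± 0.27, and MHZ4 had 0.075 ± 0.31 and -0.20 ± 0.31.

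In perception and signalling none of the receptor, phosphatase and bZIP genes tested passed for arsenate. OsPYL5, the only receptor measured, had log2 changes of -0.15 ± 0.16 in Azucena and -0.43 ± 0.16 in Bala. The 6 tested clade A phosphatases, the negative regulators that dock on the SnRK2 kinases, ran from -0.37 to 1.27 in Azucena and from -0.31 to 0.32 in Bala, and the smallest adjusted p was 0.0856. Of these, OsPP2C09 and OsPP2C68, named after their values were seen, were higher in Bala than in Azucena controls, a comparison in which 12.2% of all genes were called (1.02 ± 0.27, limma adjusted p = 0.0378, and 0.94 ± 0.25, limma adjusted p = 0.0395). Both calls were lost without the experiment block (adjusted p = 0.166 and 0.172), without the filter (0.108 and 0.118) and without any 1 of the 3 Azucena controls (0.0648 to 0.179). The factor TRAB1, a bZIP substrate of the kinases, had 0.46 ± 0.20 and 0.33 ± 0.20, and OsbZIP23, a bZIP activator of hormone-responsive genes, 0.34 ± 0.23 and 0.13 ± 0.23.

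PM1 (chromosome 5), a plasma membrane protein known to import abscisic acid, had the largest log2 changes among these 25 genes. It rose in Azucena from 8.5, 15.5 and 1 to 550.6, 316.5 and 277.2, and in Bala from 65.3, 82.7 and 73.2 to 1566, 2065 and 1185. The log2 change was 5.46 ± 0.44 in Azucena (limma adjusted p = 2.4e-04) and 4.38 ± 0.44 in Bala (limma adjusted p = 8.3e-04), and both calls held in all 24 alternatives. Of the Azucena controls of PM1, 2 were below the filter value of 9.4, so the size of its change there depends on the constant added to the signal. Another probe set of PM1, with a mean signal of 2.16, was below the filter and not tested.

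**Figure D4:**
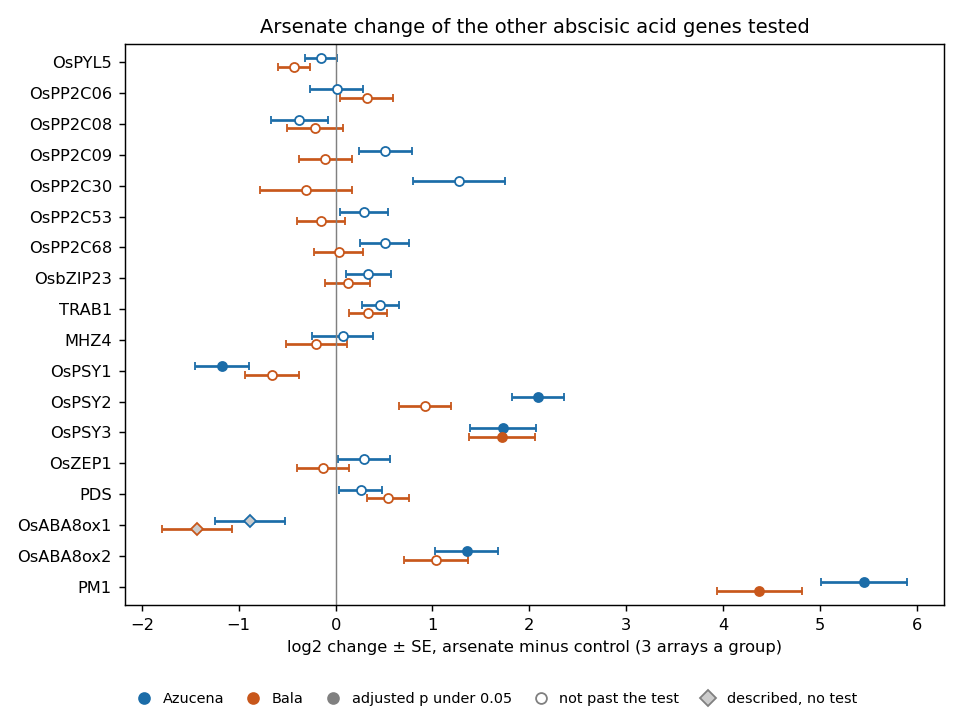
Log2 change ± SE with arsenate (horizontal axis, 3 arrays a group) of the receptor, phosphatases, transcription factors, synthesis genes, hydroxylases and transporter that were tested, in Azucena and Bala, with filled circles for an adjusted p under 0.05 and diamonds for OsABA8ox1, which is described without a test. The hydroxylases lie on opposite sides of 0, with OsABA8ox1 at -0.89 and -1.43 and OsABA8ox2 at 1.35 and 1.04.

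Transcripts known as outputs of the hormone were mostly higher while the 2 kinases were lower. Of 9 such genes 8 were tested, and 6 rose and 0 fell in Azucena, where 12.4% of all genes rose, each counted on its probe set with the highest mean. In Bala 6 rose and 1 fell, and 6.98% of all genes rose. The list of outputs was chosen with earlier results of these data known. These counts, and the adjusted p values of its genes below, are therefore a description and not an independent test. RAB21, OsLEA3-1, RAB16D and RAB16B are named because their adjusted p was the smallest of the list. RAB21, a dehydrin induced by abscisic acid, rose from 0.7, 0.6 and 2.3 to 682.2, 246.7 and 131.6 in Azucena, and from 9, 1 and 0.5 to 1134, 1884 and 1021 in Bala. No array of one treatment overlapped the other. All control signals of RAB21, and some of RAB16B and RAB16D, were below the filter value, so the size of their log2 changes depends on the constant added. RAB21 passed the filter, set on the mean of all arrays, only through its arsenate arrays. Its place among the genes that rose is therefore not independent of the filter. A second probe set of RAB21 gave log2 changes of 3.95 ± 0.48 in Azucena and 5.39 ± 0.48 in Bala, against 6.46 and 8.18 on the first. OsLEA3-1, a late embryogenesis abundant protein, rose by 4.05 ± 0.40 in Azucena and 2.94 ± 0.40 in Bala, RAB16D by 3.61 ± 0.53 and 5.29 ± 0.53, and RAB16B by 5.00 ± 0.59 and 4.56 ± 0.59 (limma adjusted p at most 0.00292). The 1 that fell in Bala was the dehydrin OsDhn1, by 1.47 on the log2 scale (SE 0.20, limma adjusted p = 0.00273), named after its values were seen. In Azucena OsDhn1 had a log2 change of -0.32 ± 0.20 on that probe set, but 2 others with lower signals gave -2.08 ± 0.53 (limma adjusted p = 0.0260, lower) and -1.16 ± 0.38 (limma adjusted p = 0.0601).

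Among 2225 other genes with a name, those whose log2 values were most like OsSAPK3 over the 12 arrays were HOS66, a homeobox gene (Pearson r = 0.985), OsGLN1;2, a cytosolic glutamine synthetase (0.977), and OsSAPK4 (0.974). Most like OsSAPK4 were OsSAPK3 (0.974), the bZIP factor OsbZIP79 (0.972) and the CBL-interacting kinase gene OsCIPK01 (0.967). Most like OsABA8ox1 were CAM (0.892), Os-RSZ23, of the SR splicing factors (0.884), and the SWEET family sugar transporter OsSWEET4 (0.877). Each kinase was thus among the 3 nearest of the other, and no named gene came as near to OsABA8ox1. The arrays share 4 groups, so these values are a description of 12 points that mostly differ by treatment. Both kinases were also selected on values of these arrays, so their likeness is not independent of that choice.

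The log2 changes of these neighbours were all below 0. HOS66 had log2 changes of -1.52 ± 0.24 in Azucena and -1.14 ± 0.24 in Bala, OsGLN1;2 -1.51 ± 0.29 and -1.04 ± 0.29, OsbZIP79 -1.49 ± 0.33 and -0.94 ± 0.33, and OsCIPK01 -1.10 ± 0.25 and -1.42 ± 0.25. CAM differed by only -0.24 ± 0.16 and -0.41 ± 0.16, and Os-RSZ23 by -0.42 ± 0.18 and -0.60 ± 0.18. OsSWEET4 was at -1.40 ± 0.18 and -1.26 ± 0.18.

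**Figure D5:**
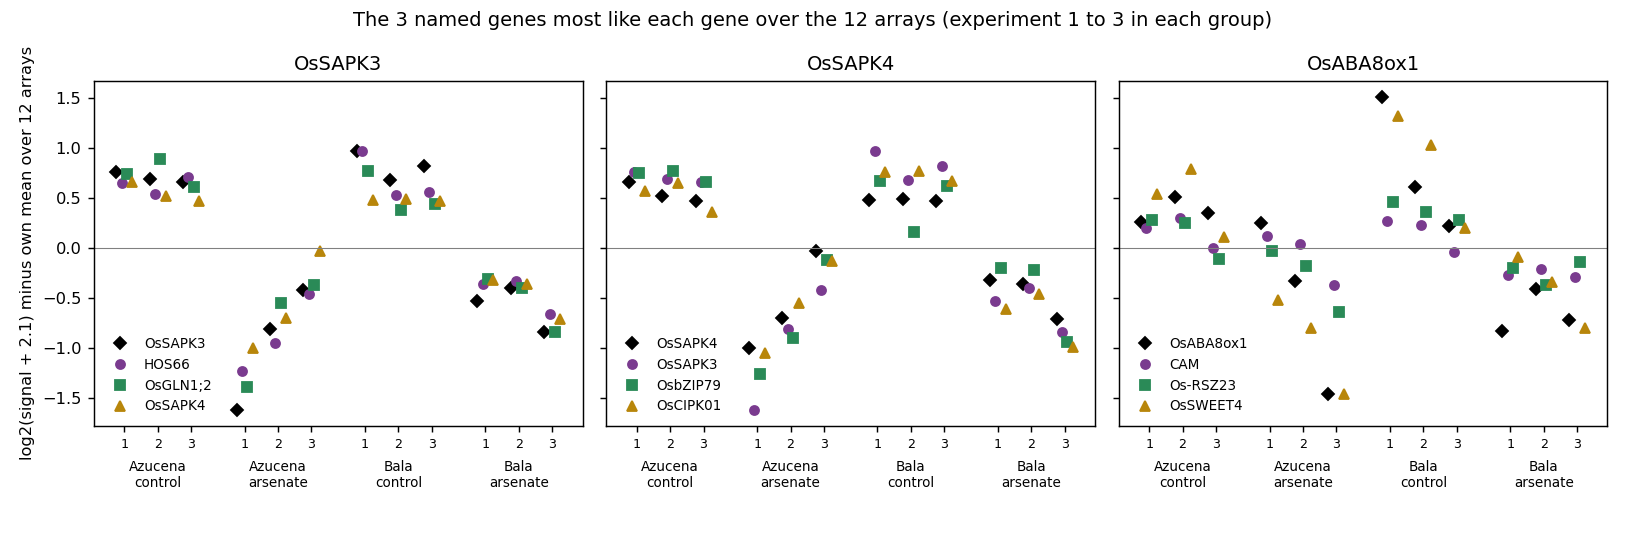
Log2(signal + 2.1) minus each gene's own mean over the 12 arrays (vertical axis) for OsSAPK3, OsSAPK4 and OsABA8ox1 (diamonds) and the 3 named genes most like each, with the arrays of experiments 1 to 3 side by side in each group. The kinases and their neighbours part the control from the arsenate arrays, and in the OsABA8ox1 panel CAM and Os-RSZ23 span a smaller range than the hydroxylase.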

How the data were processed

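Per the submitters' processing notes, the authors made each deposited intensity with MAS5 (version not given), 1 signal a probe set. Their scaling to a trimmed mean of 100.0 (2% trimmed at each end) was kept. With R 4.3.3 and limma 3.58.1, log2(signal + 2.1), with 2.1 the 25th percentile of signals, was fitted over the 12 arrays, with a mean for each of 4 groups and a block for each experiment, since the series design states that the 4 groups of a replicate were harvested together. Deviations of same-numbered arrays correlated with a median r of 0.131 (18 pairs), and those of other numbers with -0.0359 (36 pairs). Of 57258 probe sets other than controls, 28461 with a mean above 9.4, the median of all signals, were tested, and Benjamini-Hochberg adjustment was made per contrast for 5 contrasts (threshold 0.05). The number of arrays limits the precision. Calls were counted by gene, on the probe set with the highest mean. Names came from the platform annotation and RefSeq, which gave 1 gene for 22436 probe sets, several for 95 and none for 34727. The fit was tested on simulated data. The 3 genes, the gene lists and the comparisons were chosen with earlier results of these data known. The text names these 3 genes, all measured SnRK2 kinases and hydroxylases, pathway genes past the test for arsenate, the 4 output genes with the smallest adjusted p, and for each of the 3 genes the 3 most alike. OsPYL5, TRAB1, OsbZIP23, PDS, OsZEP1, MHZ4, OsPP2C09, OsPP2C68, OsDhn1 and the tissue markers are named outside that rule, after their values were seen. Alternatives were no block, other pseudocounts, filters and scalings, limma's trend and robust options, leaving out each array or experiment and, chosen after seeing the data, leaving out Azucena control 3 and Bala arsenate 3 together. Sequences were not used here.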

Additional observations from a re-analysis of the deposited data

How the results depend on the processing

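All log2 changes of OsSAPK3, OsSAPK4 and OsABA8ox1 with arsenate stayed below 0 under the 24 alternatives. Several of these could not turn the sign, which was below 0 within each experiment. Without the replicate block, the genes of the abscisic acid list other than these 3 that passed went from 2 to 1 in Bala, from 4 to 1 for Bala against Azucena controls and from 2 to 1 for Bala against Azucena with arsenate, and the probe sets called for the difference of the arsenate change went from 26 to 58. That count for the difference was 17 and 138 with pseudocounts at the 5th and 50th percentile, 5 without the filter, 56 with the filter at the 70th percentile, 71 with median centring, 77 with the trend and robust options and 1 without Azucena control 3 and Bala arsenate 3. Without the filter, probe sets called went from 5989 to 3102 in Azucena and from 3379 to 1602 in Bala, and list genes from 5 to 3 in Azucena and from 4 to 2 between controls. With the filter at the 70th percentile, which leaves out OsSAPK10, list genes in Bala were 5, and probe sets called between varieties with arsenate went from 3779 to 2478. With the trend and robust options list genes in Bala were 5, and with a pseudocount at the 5th percentile they were 1 between varieties with arsenate. Without Azucena control 3 and Bala arsenate 3, probe sets called were 1886 in Bala and 2604 between controls (3914 with all arrays), OsSAPK4 in Bala was -0.68, and the difference between controls was -0.031 for OsSAPK3 and -0.25 for OsSAPK4. Median centring made these 0.27 and 0.075, shifted the median over all tested probe sets from 0.096 to 0.19 in Azucena and from 0.055 to -0.10 in Bala, and the higher share of calls from 52.1% to 36.2% in Bala. For the difference between varieties it moved that share from 46.2% to 28.2%, and between controls from 40.6% to 51.7%. The cause was not tested.

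Leaving out 1 array or 1 experiment gave 858 to 6539 probe sets called in Azucena, 429 to 3730 in Bala, 0 to 97 for their difference, 1748 to 4184 between controls and 1653 to 4138 between varieties with arsenate. List genes were 1 to 5 in Azucena, 1 to 4 in Bala, 0 for the difference, 1 to 4 between controls and 0 to 2 with arsenate. The lowest counts of probe sets, except for the difference, came without experiment 2, which leaves 8 arrays. The difference between controls was -0.042 to 0.25 for OsSAPK3 and -0.16 to 0.028 for OsSAPK4, and -0.018 to 0.67 for OsABA8ox1, and with arsenate -0.017 to 0.75, -0.17 to 0.51 and -0.58 to 0.33. Without a whole experiment, calls of OsABA8ox2 and OsPSY1 in Azucena, OsPSY3 in both varieties, and OsPSY2 in Azucena (without experiment 2, adjusted p 0.0518) were lost, as were those in Bala of OsLEA3-1 (without experiment 2, 0.0680) and RAB16B (without experiment 1, 0.0592, or 2, 0.0511). Each of the 3 genes has 1 probe set, so another probe set could not be tried.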
